A study of Mus musculus with 2 samples.

Results

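The broad stretches of accessible chromatin in sorted embryonic motor neurons were described, defined as every separate interval of 1500 bp or more on chromosomes 1 to 19 of the deposited peak list. The members were chosen by this measured width alone. There were 2155 such intervals among 101258 on these chromosomes (2.13%) and 104069 in the whole list. Their widths are therefore a description, as are the fold and read values of the same list. The cells were GFP-positive cells labelled as spinal motor neurons and sorted by FACS from Hb9::GFP embryos at embryonic day 10.5, on the C57/Bl6 strain, with no treatment named. Mnx1, the motor neuron homeobox gene formerly called Hb9, lends its regulatory sequence to the GFP reporter, so any cell in which that sequence is active could be sorted. The study has 1 group of 2 replicates, and the labels do not say whether these came from separate litters. Both replicates were pooled into 1 list, so no value has a replicate error, no value was tested, and an opening in a larger share of cells cannot be told apart from a wider opening in each cell.

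ATAC-seq uses the Tn5 transposase, which cuts and tags DNA that nucleosomes leave free. Promoters and enhancers are the usual places of such DNA, and promoters dense in CpG dinucleotides are kept largely clear of nucleosomes in most cell types. Spinal motor neurons arise from ventral progenitors, switch on transcription factors such as Mnx1, Isl1 and Lhx3, settle into motor columns under the control of Hox genes and their partners, and grow axons to muscle. Intervals of any width at gene ends did not set the labelled cell type apart from its neighbours in the embryo. Of 15 motor neuron transcription factors, 14 had an interval of any width within 1 kb of an end, against 68.8% of all protein-coding genes. Isl2 had none. The share was alike in lists of neighbouring cell types, with 17 of 18 ventral and 18 of 19 dorsal interneuron genes. It was 16 of 17 for sensory neuron and neural crest genes and 16 of 18 for mesoderm and muscle genes. In the cholinergic list, which also holds genes of other functions, 6 of 8 genes had an interval there. Of 13 blood and microglia genes, 3 had one, and the haemoglobin genes Hbb-bt and Hba-a1 and the complement genes C1qa and C1qb had none. Of 14 endothelial genes, 9 had one, as did 8 of 12 epidermal genes. Accessible chromatin at a gene does not show that the gene is expressed, and cell identity was not tested in another way.

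The DNA under broad intervals is shown first at 4 gene starts, chosen from named genes of high and low CpG content, followed by a start with no interval. Each sequence is the 300 bases from 250 before to 50 after a listed start, from RefSeq on GRCm38.p6, written along the direction of transcription, with every CpG in capitals. Tshz3 (chr7:36697868-36698167, plus strand) encodes a zinc finger transcription factor and held the broadest interval at a gene end. Irs2 (chr8:11008880-11009179, minus strand) encodes an adaptor of insulin and IGF signalling. Nkx6-1 (chr5:101664662-101664961, minus strand) encodes a homeodomain factor of motor neurons and their progenitors. Neurog2 (chr3:127632886-127633185, plus strand) encodes a proneural factor, and Lyz2 (chr10:117282223-117282522, minus strand) encodes the lysozyme of macrophages.
Tshz3: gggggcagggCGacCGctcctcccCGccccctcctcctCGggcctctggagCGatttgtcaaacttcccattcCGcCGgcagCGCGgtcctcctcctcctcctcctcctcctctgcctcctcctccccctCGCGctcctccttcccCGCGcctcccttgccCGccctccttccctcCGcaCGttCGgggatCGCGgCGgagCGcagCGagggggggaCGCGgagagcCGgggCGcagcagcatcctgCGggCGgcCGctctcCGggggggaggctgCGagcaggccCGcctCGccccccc
Irs2: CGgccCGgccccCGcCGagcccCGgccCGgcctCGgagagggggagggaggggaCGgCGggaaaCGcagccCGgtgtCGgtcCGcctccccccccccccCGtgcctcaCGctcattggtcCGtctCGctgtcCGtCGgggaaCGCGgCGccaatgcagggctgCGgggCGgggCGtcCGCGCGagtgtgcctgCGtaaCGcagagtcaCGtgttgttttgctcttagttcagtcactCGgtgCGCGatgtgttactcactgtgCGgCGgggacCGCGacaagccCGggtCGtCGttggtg
Nkx6-1: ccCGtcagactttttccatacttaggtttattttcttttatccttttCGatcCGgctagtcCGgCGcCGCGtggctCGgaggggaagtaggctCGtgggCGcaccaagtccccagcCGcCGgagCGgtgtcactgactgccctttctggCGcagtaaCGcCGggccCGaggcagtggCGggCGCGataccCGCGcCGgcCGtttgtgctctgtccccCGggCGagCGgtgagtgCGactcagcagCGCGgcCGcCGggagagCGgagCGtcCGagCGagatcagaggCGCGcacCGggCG
Neurog2: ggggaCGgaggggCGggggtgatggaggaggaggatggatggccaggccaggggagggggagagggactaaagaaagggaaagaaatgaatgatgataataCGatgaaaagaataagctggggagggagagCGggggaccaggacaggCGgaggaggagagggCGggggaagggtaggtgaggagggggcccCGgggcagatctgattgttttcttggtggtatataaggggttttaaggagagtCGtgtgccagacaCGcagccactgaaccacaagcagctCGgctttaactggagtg
Lyz2: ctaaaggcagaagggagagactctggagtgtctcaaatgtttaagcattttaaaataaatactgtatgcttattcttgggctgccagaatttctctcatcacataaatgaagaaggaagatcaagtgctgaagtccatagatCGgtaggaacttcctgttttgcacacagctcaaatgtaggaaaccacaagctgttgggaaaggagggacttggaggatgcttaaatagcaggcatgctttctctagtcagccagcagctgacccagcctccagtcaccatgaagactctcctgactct
The Irs2 window holds 41 CpG at 72.0% GC, and its interval was 2923 bp wide. The Nkx6-1 window holds 40 CpG, under an interval of 2523 bp, and the Tshz3 window 33 CpG, under one of 3398 bp. Neurog2 is the CpG-poor case among them, with 10 CpG at 58.0% GC under an interval of 2216 bp. The Lyz2 window holds 1 CpG, and no interval lay over it.

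The broad intervals were the tail of a smooth distribution rather than a separate class. Their widths ran from 1500 to 5716 bp, with a median of 1697 bp and an upper quartile of 1886 bp, while the median over all intervals was 380 bp. At 2000 bp or more there were 337, at 2500 bp or more 60, and at 3000 bp or more 14. The count of intervals fell steadily across the limit, with 671 in the 100 bp from 1500 bp up and 869 in the 100 bp below. Members exactly at 1500 bp lay at the genes of the transcription factor Creb1, the histone deacetylase Hdac2, the Ras activator Sos2 and the lysosomal trafficking regulator Lyst, and inside Hivep3. Intervals of 1499 bp, just outside, lay at the histone gene H2ac6, the Notch target Nrarp, Ccdc107 and Trim62. Their folds overlapped, at 7.07 to 10.5 inside and 5.98 to 9.98 outside. Together the broad intervals covered 3.83 Mb of the 51.2 Mb covered on these chromosomes, or 7.49%. Their share of the intervals ranged over the chromosomes from 1.80% on chromosome 1 to 2.76% on chromosome 17.

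Most broad intervals held several summits, the positions of locally highest read number. They had 8106 in all, with a median of 4, a mean of 3.76 and a highest count of 18. Between 3 and 5 summits were found in 1561 intervals (72.4%), and 219 had 6 or more. A single summit was found in 47 broad intervals (2.18%), against 78.8% of the 99103 narrower intervals. Per length they were sparser, with a median of 1.99 summits per kb in broad intervals, against 3.16 in narrower ones. By width the median was 4.0 per kb under 500 bp, where 1 summit fills a short interval, 1.87 at 500 to 1000 bp, 1.77 at 1000 to 1500 bp, 1.97 at 1500 to 2000 bp, 2.28 at 2000 to 2500 bp and 2.31 at 2500 bp or more. Neighbouring summits within a broad interval were a median of 343 bp apart (quartiles 227 and 514 bp), against 248 bp in narrower intervals. A shorter interval leaves less room for wide gaps. The highest summit fell into the middle one of 3 equal parts of the interval in 47.1% of cases.

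**Figure D1:**
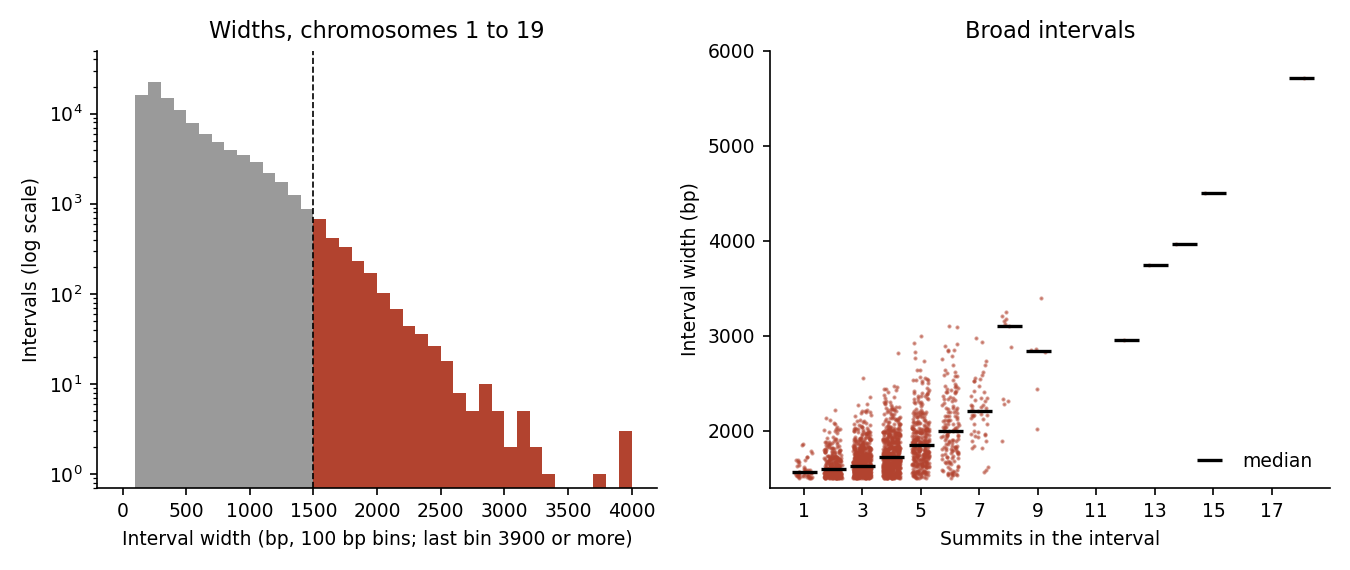
Left, the number of intervals on chromosomes 1 to 19 (log scale) by width in bp, with broad intervals in red, narrower ones in grey and the limit of 1500 bp dashed; the last bar pools the 3 intervals of 3900 bp or more. Right, the width of each broad interval by its number of summits, with the median of each number as a black bar; the median width rises from 1 to 8 summits, and intervals of 12 or more summits are single cases.

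The summits within an interval were unequal. Fold, the authors' ratio of reads at a summit to the caller's local background, had a median of 7.23 at the highest summit and 2.64 at the lowest among the 2108 intervals with more than 1 summit. In 1322 of them (62.7%) the lowest summit had under 50% of the highest fold. Intervals with fewer summits were the stronger ones. The median fold was 9.92 in those with 1 summit, 8.91 with 2, 7.87 with 3, 7.01 with 4, 6.38 with 5 and 5.88 with 6. The share with the highest summit within 1 kb of a gene end was 89.4% with 1 summit, 73.8% with 2, 64.5% with 3, 60.6% with 4, 54.1% with 5 and 60.8% with 6. The broadest intervals with 1 summit lay at the ends of Cables1, a regulator of cyclin-dependent kinases, at 1864 bp, Ranbp9, a scaffold protein gene, at 1848 bp, and Ikzf1, a zinc finger factor of lymphocytes, at 1787 bp. Most summits were past the usual limit. Of all summits, the highest of each interval included, 95.5% had a q-value under 0.05, and each of the 2155 intervals had at least 1 such summit.

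Width and strength did not rise together over the whole range. The median fold at the highest summit was 7.27 in broad intervals and 3.14 in narrower ones, and the median read number was 113 and 22. By width, with the upper limit of each class left out of it, the median fold was 2.51 under 500 bp, 5.18 at 500 to 1000 bp and 8.17 at 1000 to 1500 bp, then 7.51 at 1500 to 2000 bp, 6.56 at 2000 to 2500 bp and 5.86 at 2500 bp or more. Reads went on rising over the same classes, at 17, 40, 94, 112, 116 and 128, and so did the local background, at 5.37, 6.32, 10.5, 13.7, 16.8 and 20.7 reads. Among the widest intervals, then, more reads stood over a higher local background as the caller computed it. Whether reads of the interval itself entered that background is not given. The 5.37 reads of the narrowest class are also the lowest background in the list. The caller draws an interval where reads exceed its limit, so deeper sites can be drawn wider, and the part of read number in the width was not tested.

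**Figure D2:**
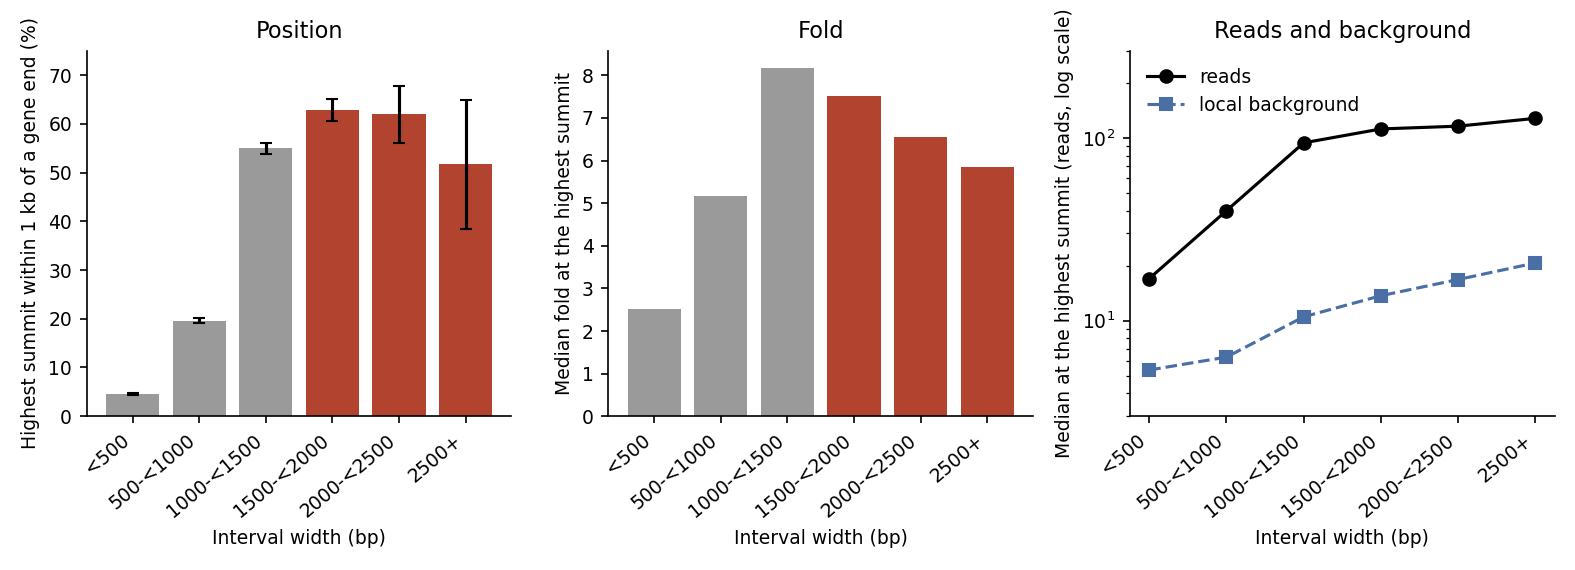
For 6 classes of interval width in bp (broad classes red, narrower grey): left, the share of intervals with the highest summit within 1 kb of a protein-coding gene end, with exact 95% binomial intervals as bars; middle, the median fold; right, the median reads and local background at the highest summit (log scale). The share levels off from 1500 bp, the fold peaks at 1000 to 1500 bp, and the background rises through all classes.

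Broad intervals gathered at genes. The highest summit lay within 1 kb of an end of a protein-coding gene in 1346 of them, or 62.5% (exact binomial 95% interval 60.4 to 64.5%), against 13.0% of narrower intervals (12.8 to 13.3%) and 14.1% of all intervals. These binomial intervals cover counting error only and treat intervals as independent. A further 506 (23.5%) had the highest summit inside a gene and 303 (14.1%) between genes, against 41.8% and 45.1% of narrower intervals. Put the other way, 9.43% of all intervals at gene ends were broad, 1.21% of those inside genes and 0.673% of those between genes. Measured from the edge of the interval, 69.3% of broad intervals came within 1 kb of a gene end, against 15.3% of all intervals, and a wider interval reaches further by its width alone. Above 2000 bp the share did not rise further. The share by highest summit was 55% at 1000 to 1500 bp (53.9 to 56.0%), 62.9% at 1500 to 2000 bp (60.6 to 65.1%), 62.1% at 2000 to 2500 bp (56.1 to 67.8%) and 51.7% at 2500 bp or more (38.4 to 64.8%).

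Intervals at gene ends were stronger than the others, with a median fold of 7.87 and 129 reads, against 6.58 and 90 reads inside genes and 6.16 and 76 reads between genes. They also had fewer summits, a median of 3 against 4 in either other class. Those between genes were a median of 47277 bp from the nearest gene end, and 101 of them were over 100 kb away. The median gap between neighbouring broad intervals was 584 kb, and 27 of 2136 neighbouring pairs were under 10 kb apart. Whether this spacing differs from that of randomly placed intervals was not tested.

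Nearly all gene-end intervals were at the start of the gene. Of 1052 that lay at an end of a gene with a listed start, 1037 (98.6%, 97.7 to 99.2%) were at the start side and 15 at the far side. A start of a protein-coding gene was contained in 1253 broad intervals (58.1%). Starts of 2 or more genes were contained in 160 of these (12.8%, 11.0 to 14.7%), against 6.75% of narrower intervals that hold a start, and starts on both strands in 12.4% against 6.67%. A longer interval can hold more starts by its length alone, and the part of length in these shares was not tested. The interval of 1520 bp at the end of Invs, a gene of left-right asymmetry, had one of the highest folds, 14.3. Of 20063 listed protein-coding starts, 1679 (8.37%) lay in a broad interval. Of 11310 listed long noncoding RNA starts, 253 did, and 43 of the 578 intervals that had no protein-coding start and a highest summit over 1 kb from every gene end held one.

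At the start, broad intervals extended mainly into the transcribed side. Among the 945 with a single listed start, the median reach was 664 bp upstream and 1064 bp downstream, and 673 (71.2%, 68.2 to 74.1%) reached further downstream. This lean was not particular to broad intervals, since it was found in 72.8% of those of 1000 to 1500 bp and 68.9% of those of 500 to 1000 bp. The highest summit itself sat near the start, a median of 19 bp upstream (quartiles 164 bp upstream and 154 bp downstream). It was within 250 bp of the start in 67.0% of broad intervals, against 85.0% of those of 1000 to 1500 bp and 92.2% of those of 500 to 1000 bp. A narrower interval over a start leaves less room for a distant summit, and the part of width in these shares was not tested. Secondary summits lay on both sides. Of all 3444 summits, the highest ones included, 60.8% lay downstream. The share was similar in narrower intervals, at 59.4% for those of 1000 to 1500 bp and 58.2% for those of 500 to 1000 bp. A position 1000 bp downstream was covered in 55.6% of the 945, and one 1000 bp upstream in 19.9%.

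**Figure D3:**
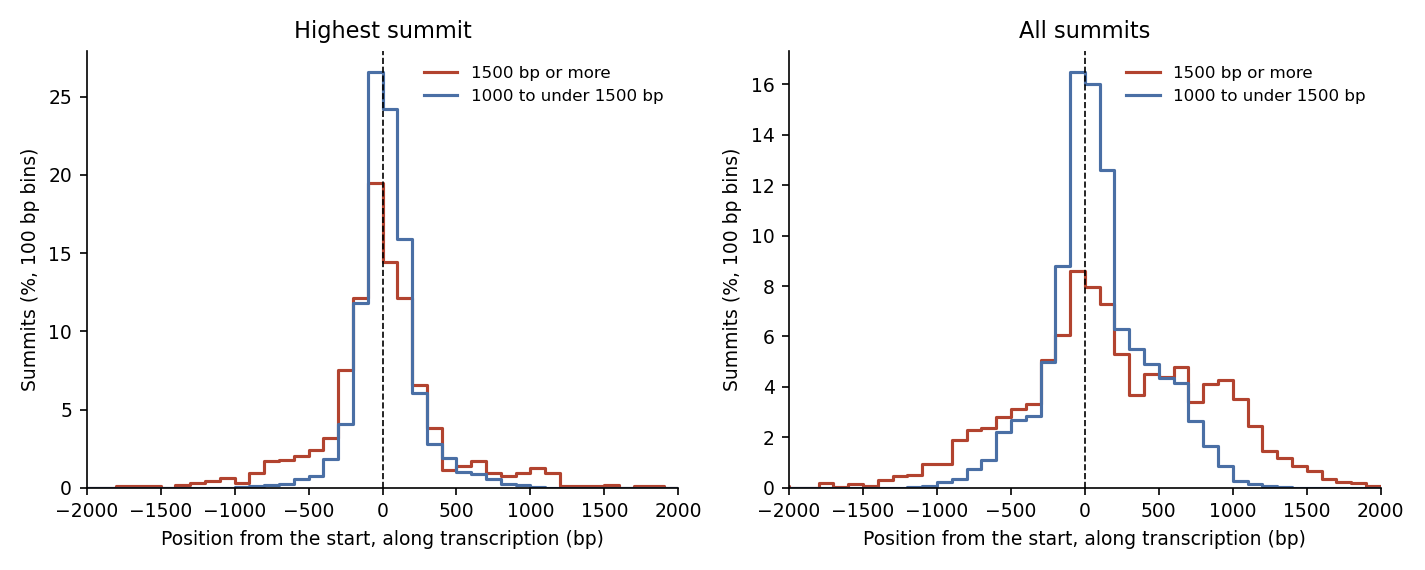
Position of the highest summit (left) and of all summits (right) relative to the listed start, in bp along the direction of transcription, as the percentage of summits in 100 bp bins, for intervals with a single listed start of 1500 bp or more (red) and of 1000 to 1500 bp (blue). In both width classes the peak is at the start, and further summits lie downstream. Among all summits of the broad class, the bins from 400 to 1000 bp downstream hold 3.4 to 4.79% each. In the narrower class the share falls from 5.5% in the bin at 300 bp to 4.14% at 600 bp.

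Starts under broad intervals were rich in CpG. The 300 bases around them had a median GC content of 67.3%, 28 CpG and a ratio of observed to expected CpG of 0.843, against 62.0%, 21 and 0.77 at starts under narrower intervals and 47.7%, 3 and 0.192 at starts with no interval. A start was called CpG-rich at a GC content of 55% or more and a ratio of 0.6 or more. By that rule 1341 of 1679 starts under broad intervals were CpG-rich (79.9%, 77.9 to 81.8%), against 65.4% of starts under narrower ones (64.4 to 66.3%) and 2.65% of those with none. The share rose with width, from 24.8% under 500 bp over 58.2% at 500 to 1000 bp, 75.9% at 1000 to 1500 bp and 79.4% at 1500 to 2000 bp to 82.2% at 2000 bp or more. The windows printed for Irs2 and Nkx6-1 are of the CpG-rich kind, with ratios of 1.06 and 1.18, while that of Neurog2 (0.57) and the same window at Jun (0.594) fall just below the line. GC content can also affect amplification, and its part in the widths was not tested.

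Short motifs differed between the starts of broad and narrower intervals. Exact matches were counted on both strands of the same 300 bases, and none of the motifs contains another. The ETS core CCGGAAG, the binding sequence of ETS-family activators such as GABP, was present at 10.8% of starts under broad intervals (9.39 to 12.4%), against 19.1% under narrower ones (18.3 to 19.8%) and 11.9% of all starts. By width it was present at 8.99% under 500 bp, 20.1% at 500 to 1000 bp, 19.4% at 1000 to 1500 bp, 11.5% at 1500 to 2000 bp and 7.27% at 2000 bp or more. Among CpG-rich starts alone the shares were 11.9% and 21.6%, so the lower share was also found at like CpG class. The GC box GGGCGG, bound by SP and KLF factors, went the other way, at 75.5% of starts under broad intervals, against 68.0% under narrower ones and 47.0% of all. Among CpG-rich starts alone the shares were closer, 83.1% and 79.6%, and by width there was no step at the limit, with 74.0% at 1000 to 1500 bp and 74.6% at 1500 to 2000 bp.

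The remaining motifs differed by under 4 percentage points between broad and narrower intervals, and the binomial intervals did not overlap for the E-box and the homeodomain core, although they did among CpG-rich starts alone. The TATA box TATAAA was at 5.90% of starts under broad intervals, against 5.91% under narrower ones and 12.7% of all. The CCAAT box, bound by NF-Y, was at 36.6% against 38.2%, and 38.1% of all starts, with 26.5% at intervals of 2000 bp or more (21.4 to 32.2%). The E-box CAGCTG was at 11.8% against 15.2%, and 15.6% of all. The homeodomain core TAATTA, which motor neuron factors such as Isl1 and Lhx3 can bind, was at 1.19% against 2.29%, and 4.48% of all. The cyclic AMP response element TGACGTCA was at 3.16% against 3.46%, and 2.30% of all. A match is a stretch of letters, not a measured binding site.

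**Figure D4:**
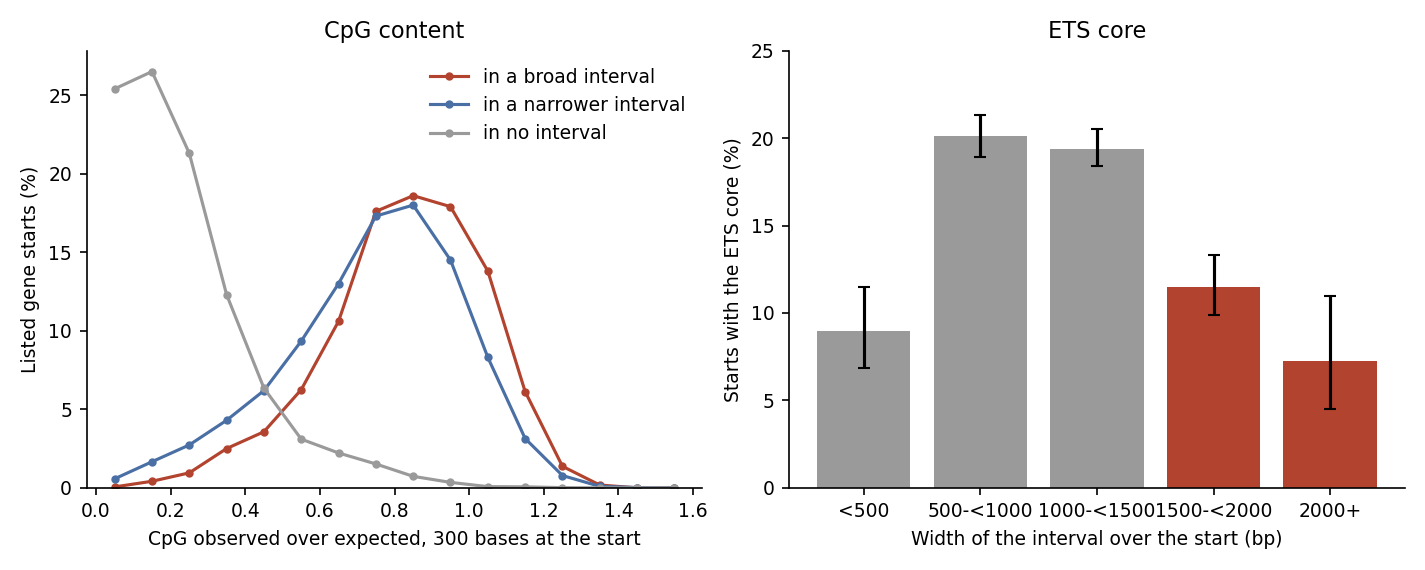
Left, the distribution of the ratio of observed to expected CpG in the 300 bases at listed starts, as a percentage of starts, for starts in a broad interval (red), in a narrower interval (blue) and in none (grey). Right, the share of starts with the ETS core by the width of the interval over the start, with exact 95% binomial intervals; the share is near 20% from 500 to 1500 bp and lower in both broad classes (red).

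The broadest interval of all, 5716 bp with 18 summits at chr17:39843056-39848771, lay over a ribosomal RNA pseudogene, Rn18s-rs5, and the long noncoding RNA AY036118. Its highest summit had 1943 reads over a local background of 758 reads, a fold of 2.56. The second, 4505 bp with 15 summits at chr1:24611609-24616113, lay over the pseudogenes Gm10222 and Gm10925 and had 10129 reads over a background of 3051. The third and the fourth, 3968 bp at chr4:3080446-3084413 and 3744 bp at chr14:19415725-19419468, were far from genes and had 14 and 13 summits. None of these 4 was within 20 kb of a protein-coding gene end. Over the pseudogenes, reads of similar copies elsewhere in the genome cannot be told apart from reads of the site itself.

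Such high backgrounds were few but marked. A local background of 30 reads or more was found at 54 broad intervals (2.51%), against 0.202% of narrower ones, and 29 of the 54 were at gene ends. A background of 100 reads or more was found at 11, none of them at a gene end, with a median of 1943 reads. Of these 11, 7 lay on chromosome 9 between positions 3000010 and 3036692, with 793 to 2679 reads. A further one lay inside Myo3a, a myosin gene, at 1650 bp and 4244 reads.

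The broadest interval at a gene end was that of Tshz3, 3398 bp at chr7:36695364-36698761, over the start printed above. It also overlapped the protein-coding gene Gm36722, and its highest summit lay inside that gene. The interval had 9 summits, a fold of 3.97 and 93 reads, and its highest summit was 522 bp from the end of Tshz3. Next came LOC108167694 at 3158 bp and Zswim6, a zinc finger gene of brain development, at 3103 bp with 6 summits and 240 reads. Zfp36l2, which encodes an RNA-binding protein that speeds mRNA decay, had 3096 bp and a fold of 5.83. Irs2 had 2923 bp, 5 summits, a fold of 7.72 and 194 reads. Tsc22d2 had 2891 bp and 184 reads. These intervals were wide with moderate folds, since none of the 20 broadest at gene ends had a fold above 8.11.

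The others of the 20 broadest at gene ends lay at genes of varied function. Regulators of transcription and chromatin among them were L3mbtl3, a reader of methylated lysine, at 2853 bp, Jun, the AP-1 subunit, at 2848 bp, Nsd1, a histone methyltransferase, at 2787 bp, Cebpa, a factor of fat and myeloid cells, at 2737 bp, Insm1, a zinc finger factor of newborn neurons, at 2733 bp, Cited2, a coactivator partner, at 2644 bp, Erf, an ETS repressor, at 2583 bp, and Klf13 at 2578 bp. Fat3, a giant cadherin, had 2842 bp, Rap2b, a small GTPase, 2819 bp, the adrenergic receptor gene Adrb1 2580 bp and the adenylyl cyclase gene Adcy5 2563 bp. Rims2, a scaffold of the presynaptic active zone, had 2586 bp. Ptma, which encodes the abundant nuclear protein prothymosin, had 2766 bp and 234 reads.

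Inside genes, the broadest lay in Ubtf, the factor of ribosomal RNA transcription, at 3205 bp, in Unc45b, a myosin chaperone gene, at 3120 bp, in Cpeb2, a regulator of translation, at 3001 bp, and in Tmem267 at 2955 bp with 12 summits. The intervals nearest to Tmem132e (2975 bp), the axon guidance ligand gene Efna5 (2930 bp) and the growth factor receptor gene Igf1r (2911 bp) had their highest summit between 1 and 2 kb from the gene end, although each reached over that end. The interval of 3251 bp at chr10:7390528-7393778 lay over the pseudogene Gm21321, and that of 3175 bp at chr9:123923213-123926387 over the noncoding RNA Gm51701. At chr4:156340760-156343861, 3648 bp from the end of the pheromone receptor gene Vmn2r129, the width was 3102 bp.

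The strongest broad intervals were not the widest. The highest fold, 15.6 with 816 reads, was at an interval of 1529 bp between genes, 21378 bp from the end of Ly6c2. The neutral cholesterol ester hydrolase gene Nceh1 followed with a fold of 14.95 at 1583 bp. An interval over the transfer RNA gene n-TEttc7, 256873 bp from the nearest protein-coding gene end, that of Atp10a, had 13.7. The lowest folds were 2.17 inside Sfi1, 2.46 inside Gm7827, 2.47 inside Il3ra, 2.52 inside the semaphorin receptor gene Nrp2 and 2.56 at the ribosomal RNA pseudogene. All 5 of the lowest had 4 or more summits, and the high ones named here and Invs had 4 or fewer.

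Counted by gene, 1776 of 20665 protein-coding genes (8.59%) had a broad interval within 1 kb of an end, and 2116 (10.2%) had one there or inside. Of the 14212 genes with an interval of any width at an end, 12.5% had a broad one. Most intervals belonged to a single gene: of 1493 within reach of a gene end, 1234 touched 1 gene, 251 touched 2 and 8 touched 3 or more. In 85 genes there were 2 broad intervals, and in 6 there were 3. These 6 were the RNA splicing factor gene Celf2, the DNA methyltransferase gene Dnmt3a, Gse1, the gonadotropin receptor gene Lhcgr, the junction scaffold gene Magi1 and the transcription factor gene Nfia. The Dnmt3a intervals were 2860, 1578 and 1555 bp wide with 9, 5 and 3 summits, all inside the gene. The Nfia intervals were 1672, 1648 and 1746 bp wide, with read numbers of 97, 137 and 39, also inside the gene. Magi1 had its strongest at the gene end, 1903 bp with 184 reads, and a weak one of 1501 bp with 23 reads inside.

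Of 15 motor neuron transcription factors, 2 had a broad interval at an end (13.3%), against 8.59% of all genes. Among those with an interval of any width at an end, the share was 14.3%, against 12.5% of all such genes. Nkx6-1 had 2523 bp at chr5:101663310-101665832, with 7 summits, a fold of 7.24 and 159 reads. Zeb2, a zinc finger repressor, had 1982 bp with 4 summits and 98 reads. Inside the gene, the LIM homeobox gene Lhx4 had 1657 bp with 109 reads, and Ebf1, of the early B-cell factor family, had 1568 bp with 7 summits and 30 reads. The defining genes had narrower intervals at their ends. They measured 1279 bp at Mnx1, 1040 bp at Lhx3 and 868 bp at Isl1, where a single summit had a fold of 10.9 and 244 reads. Onecut3, at 1437 bp, and Nkx6-2, at 1389 bp, came closest to the limit.

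Mnx1 needs a separate remark, because the reporter carries its regulatory sequence. A broad interval of 1683 bp at chr5:29484804-29486486, 6824 bp from the Mnx1 gene end, had 3 summits, a fold of 7.04 and 545 reads over a background of 76.5 reads. The narrower interval at the gene end had 406 reads over a background of 53.9. Both backgrounds are far above the median of 14.2 reads at broad intervals. Reads from copies of the transgene and from the endogenous locus cannot be told apart in these data.

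Genes of motor columns and subtypes had the highest share of the 20 lists, 6 of 15 (40%), against 8.59% of all genes, or 9 of 15 with those inside genes, against 10.2% of all. At 2000 bp or more the order was not the same, with 1 of 15 motor column genes, 3 of 21 pan-neuronal genes and 1 of 9 Hox cofactors. Besides Tshz3 these were Bnc2, a zinc finger gene, at 1820 bp with 104 reads, Mecom, also known as Evi1, at 1800 bp with 122 reads, Foxp1, a Hox accessory factor of limb-innervating columns, at 1798 bp with 85 reads, Pou3f1, a POU factor of motor neuron subtypes, at 1743 bp with 131 reads, and Foxp4 at 1550 bp with 95 reads. Runx1, a factor of selected motor pools and of blood, had 1969 bp far inside the gene with 123 reads, and Foxp2 and Zfhx3 had 1648 and 1566 bp inside. Without one were Aldh1a2, the retinoic acid enzyme of limb-level columns, with 1358 bp at its end, Lhx1 with 1145 bp and Etv4 with 1244 bp. Nos1 had no interval at an end. The list was put together with earlier results of these data known, and its share is a description.

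The cholinergic list of 8 genes joined genes that make or handle acetylcholine with others, such as Prph and the peptide genes Calca and Calcb. None of the 8 had a broad interval at an end, though 6 had a narrower one there. Prph and Calcb had no interval of any width at an end. Chat and Slc18a3, the synthesis enzyme and the vesicular transporter, share 1 locus and 1 interval of 1267 bp. The choline transporter gene Slc5a7 had 904 bp with a fold of 9.90, and Ache had 1041 bp. Prph, the peripheral neurofilament protein gene, had a broad interval of 1660 bp inside the gene. Pan-neuronal genes had broad end intervals in 5 of 21 (23.8%), against 8.59% of all genes. These were the adhesion gene Ncam1 at 2619 bp, the tubulin-binding gene Stmn1 at 2473 bp, the neurofilament genes Nefm at 2014 bp and Nefl at 1592 bp, and the RNA-binding gene Elavl3 at 1810 bp. The microtubule protein genes Map2 and Mapt had 2201 and 1791 bp inside the gene.

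Axon guidance and adhesion genes had broad end intervals in 7 of 24 (29.2%), against 8.59% of all genes. The ligand gene Ntn1 led with 2341 bp, 7 summits and 64 reads. The receptor genes Plxna1 and Nrp1 had 1996 and 1892 bp, and the ephrin receptor gene Epha3 had 1725 bp with a fold of 10.1. The ephrin gene Efnb2 had 1621 bp with a single summit and 279 reads, the most in this list. Cdh8 and Epha7 had 1843 and 1591 bp. Inside genes, Cdh6 had 2181 bp, Pcdh10 1723 bp and Robo1 1616 bp.

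Neural progenitor genes had broad end intervals in 5 of 23 (21.7%), against 8.59% of all genes, namely Neurog2 at 2216 bp, the stem cell factor gene Sox2 at 1958 bp, the Notch ligand gene Dll1 at 1881 bp, Olig1 at 1776 bp and the Hedgehog effector gene Gli3 at 1625 bp. Once intervals with backgrounds from 30 reads up were left out, the count was 3, since Neurog2 and Dll1 had backgrounds of 39.1 and 34.4 reads. Ventral interneuron genes had 2 of 18, Bhlhe22 at 2007 bp and Nkx2-2, of the progenitors next to those of motor neurons, at 1947 bp. Dorsal interneuron genes had 2 of 19, Ptf1a at 1914 bp and Atoh1 at 1613 bp, with 54 and 80 reads.

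Hox genes, which set segmental identity, had 3 of 39 (7.69%), close to the 8.59% of all genes. Of those with an interval of any width at an end, 8.11% had a broad one, against 12.5% of all such genes. The 3 were Hoxd8 at 1986 bp with 93 reads, Hoxb9 at 1750 bp with 91 reads and Hoxc13 at 1701 bp with 78 reads. Their cofactors had 3 of 9 (33.3%), Pbx3 at 2450 bp with 151 reads, Meis2 at 1805 bp with 143 reads and Pknox1 at 1717 bp with 166 reads. Meis2 had a further one of 2102 bp inside the gene.

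Lists of other cell types had shares between 0 and 11.1%, against 8.59% of all genes. Among their genes with an interval of any width at an end, the shares were 0 to 12.5%, against 12.5% of all such genes. Blood and microglia genes had 0 of 13 and epidermal genes 0 of 12. Of these, 3 and 8 had an interval of any width at an end. Endothelial genes had 1 of 14, the VEGF receptor gene Flt1, at 1555 bp with 38 reads. Sensory neuron and neural crest genes had 1 of 17, Twist1 at 1605 bp. Mesoderm and muscle genes had 2 of 18, Tbx18 at 2184 bp with 104 reads and Meox2 at 1725 bp with 37 reads. The intervals at Flt1 and Meox2 were thus broad on few reads, below the median of 113, and what other cells in the sort contributed to them was not tested.

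General lists lay on both sides of the 8.59% of all genes. Immediate early genes had 6 of 16 (37.5%). Jun led with 2848 bp, followed by Egr1 at 1827 bp, Jund at 1775 bp and the phosphatase gene Dusp1 at 1750 bp. Ier5 had 1729 bp and Klf2 1606 bp. Without backgrounds of 30 reads or more the count was 4, since Jun and Jund had highest backgrounds of 34.7 and 30.2 reads. Cell cycle and growth genes had 5 of 18 (27.8%), led by the cyclin gene Ccnd2 at 1893 bp, Gadd45g at 1829 bp, the inhibitor gene Cdkn1b at 1722 bp and E2f1 at 1663 bp. Housekeeping genes had 3 of 21, the RNA polymerase subunit gene Polr2a at 1646 bp, Actb at 1563 bp and Eef1a1 at 1556 bp. Ribosomal protein genes had 1 of 30, Rpl7 at 2225 bp, although 29 of the 30 had an interval at an end, and the median width of the widest such interval per gene was 956 bp.

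**Figure D5:**
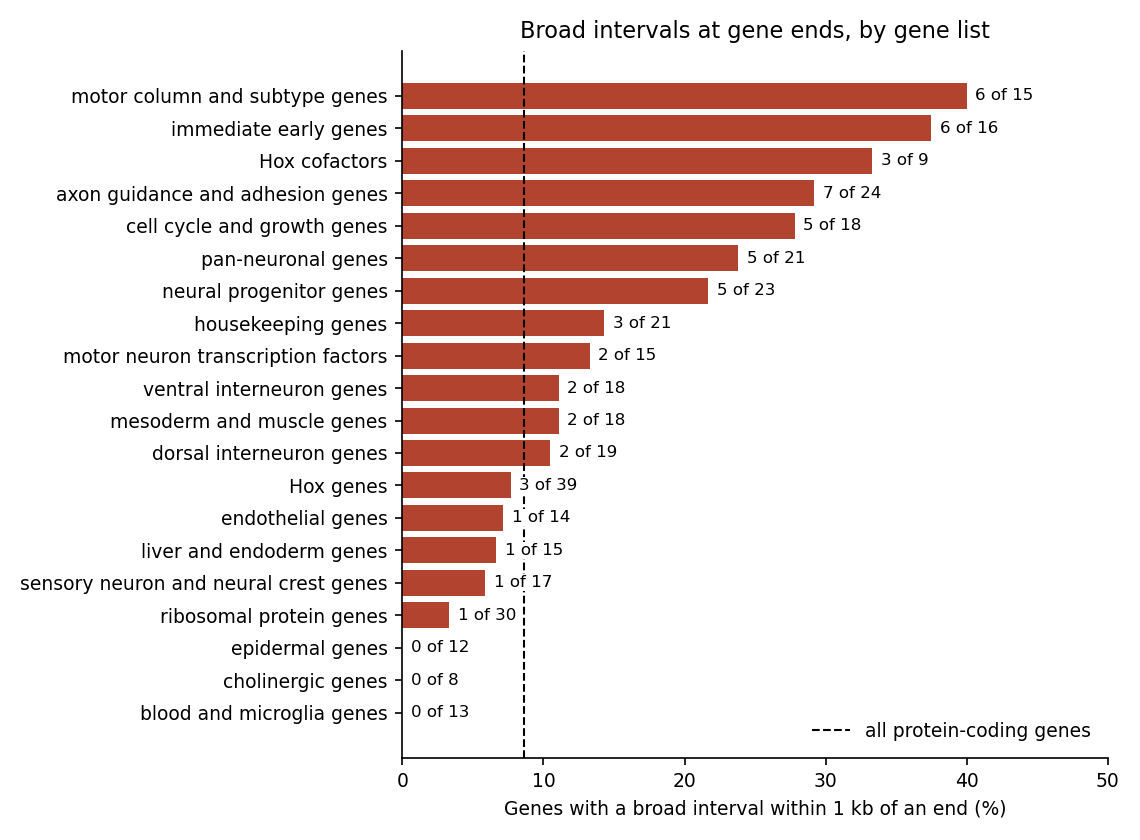
Share of the genes of 20 lists with a broad interval within 1 kb of an end, in percent, with the number of genes beside each bar and the share of all protein-coding genes (8.59%) as a dashed line. Motor column genes, immediate early genes and Hox cofactors have the highest shares, and blood, epidermal and cholinergic genes have none.

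Named gene families were added after their values had been seen. Of 213 families with a shared symbol and 12 or more members, 71 had no broad interval at an end, among them the 1104 olfactory receptor, 352 vomeronasal receptor and 53 keratin genes. Most of these genes had no interval of any width at an end, since 31 olfactory receptor and 14 keratin genes had one. Of the 354 genes with a Vmn symbol, 4 had one, against 68.8% of all protein-coding genes. Against 8.59% of all genes, Klf transcription factors had 7 of 16 (43.8%), from 1554 to 2578 bp, Sox factors 5 of 18 (Sox2, Sox4, Sox5, Sox11 and Sox12), and Zbtb factors 11 of 40. Genes that stand close together share intervals, so their counts are not separate cases. The 24 of 62 clustered histone genes shared 13 intervals of 1503 to 2284 bp, and all 21 genes of the protocadherin gamma cluster, whose gene spans share an end, shared 2. The heat shock genes Hspa1a and Hspa1l shared 1 of 1720 bp.

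A few microRNA hairpins lay in broad intervals, 19 of 919 (2.07%), in 17 intervals, against 122 (13.3%) in intervals of any width. Of the 19, 13 were inside a protein-coding gene, and most shared their interval with a listed gene start, so that the interval cannot be assigned to the microRNA alone. The neighbouring hairpins Mir130b and Mir301b shared an interval of 1632 bp at chr16:17123998-17125629, with 3 summits, a fold of 8.72 and 134 reads. Mir760 was in an interval of 1706 bp with a fold of 8.01 that was 8809 bp from the nearest gene end. Their mature sequences from RefSeq, on GRCm38.p6 and all on the minus strand, at chr16:17124071-17124092, chr16:17124456-17124477 and chr3:122293615-122293634, are given with the seed, bases 2 to 8, in capitals.
mmu-miR-130b-3p: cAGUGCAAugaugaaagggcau
mmu-miR-301b-5p: gCUCUGACuagguugcacuacu
mmu-miR-760-3p: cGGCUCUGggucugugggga
The table used lists 27 mature sequences for 18 of the 19 hairpins, with 27 different seeds. Arms that it does not list were not analysed here.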

How the data were processed

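Per the submitters' processing notes, the tools were MACS2 2.2.7.1, SAMtools 1.7.2, BWA 0.7.1.7, cutadapt 0.6.2 and Trim Galore, on mm10. What each did, duplicate handling, any Tn5 shift and the filter: not given in the sources used here. The authors deposited 1 narrowPeak list pooled over 2 replicates, with 138387 summit entries. Fold, a ratio of reads to local background at a summit, and the −log10 of the p-value and q-value are the authors' deposited values. The deposited score is 10 times the −log10 p in 99.999% of entries and was not used. The list is permissive, with 17.7% of entries at a q-value of 0.05 or more.

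Reads and background at each summit were solved from fold and −log10 p through the Poisson tail. In 99.96% of entries the solved reads differed from a whole number by under 0.01, and all of 5000 simulated entries were recovered (100.0%). The lowest was 11 reads. A site without an entry either lay below the caller's limit or was removed by the filter, and these cannot be told apart. The depth of either library is unknown. Unique intervals were measured with coordinates counted from 1. The highest summit is the one of highest fold. Genes came from a table of GRCm38.p6 without strand, so gene ends within 1 kb were used. Listed starts, with strand, cover 79.5% of protein-coding genes and none on chromosome 18.

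Members and the 20 gene lists (362 genes on chromosomes 1 to 19) were chosen with earlier results of these data known. Named were the 20 broadest intervals, the 10 with most summits, the 5 nearest either side of the limit, the 5 highest and lowest folds, genes with 3 or more, all members of the motor neuron, column, cholinergic and Hox lists with a broad interval, and up to 4 of each other list. Some items this rule selects are not reported here. Intervals at other genes named were picked after their values were seen. Alternatives were other widths, windows and q-values, joining of neighbours, and leaving out high backgrounds. Python 3.11.15, NumPy 2.4.6, pandas 2.3.3, SciPy 1.17.1 and Matplotlib 3.10.9 were used.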

Additional observations from a re-analysis of the deposited data

Results flagged for a closer look

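Intervals of 1500 bp or more were also present on sequences outside chromosomes 1 to 19, which the comparisons above do not use. There were 88, of which 68 were on X, 3 on Y, 15 on unplaced sequences and 2 on the mitochondrial genome. The X intervals had widths of 1501 to 2691 bp and 22 to 501 reads. The mitochondrial pair was 5327 and 6470 bp wide, with 15942 to 17211 reads at the highest summit and up to 20 summits.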

How the results depend on the processing

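No paired analysis was possible because both replicates were pooled into 1 list, and no replicate could be left out for the same reason. The width limit moved every value. At 1000 bp or more there were 11078 intervals with a median of 2 summits, 56.4% at a gene end by the highest summit and 60.1% by the edge, a median fold of 7.96, 98 reads, and 7694 genes. At 2000 bp or more there were 337 intervals with 5 summits, 60.2% and 73.3%, a fold of 6.48, 117 reads, and 285 genes. Counting summits of q under 0.05 alone gave a median of 3. The share at a gene end was 51.2% within 500 bp, 70.2% within 2 kb, 68.3% for any summit, 69.3% from the edge and 69.3% with all genes of the table. The other alternatives kept every value close: without backgrounds of 30 reads or more there were 2101 intervals and 1733 genes, with the highest −log10 q in the upper 50% there were 2148 intervals, and joining intervals under 150 bp apart left 2155. Counts of genes were 1720 within 500 bp, 1890 within 2 kb and 2116 anywhere in the gene. Of the 20 lists, 2 stayed within 1.5 times their count at 1000 bp or more and 5 at 2000 bp or more, against 19 without high backgrounds, 19 within 500 bp, 18 within 2 kb and 16 anywhere in the gene. The edge share at other widths, and the gene and list counts without high backgrounds, were added after seeing the data. The cause of these moves other than the changed limit itself was not tested. Few reads limit the weakest members, such as the interval at Cavin1, with 18 reads at its highest summit.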

Other observations

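Several genes of the lists were the nearest to a broad interval that lay between genes. An interval of 1664 bp with 124 reads was 36695 bp from the end of the adhesion gene Cdh6, which also has one of 2181 bp inside. An interval of 1519 bp with 109 reads was 5459 bp from Mecom. The end of Pax6, a progenitor factor gene, was 8295 bp from an interval of 1565 bp with 44 reads. Neurog1, a proneural factor gene, was 29206 bp from an interval of 1575 bp with a fold of 8.04 and 104 reads. Much further off, an interval of 1767 bp with 57 reads was 232514 bp from Nkx6-1, and one of 1593 bp with 76 reads was 165834 bp from Foxa2, a floor plate and endoderm factor gene. The nearest gene end is a position and does not show which gene an interval acts on.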
